A study of Mus musculus with 9 samples.

Results

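The clustered protocadherins are cell surface adhesion proteins of the cadherin superfamily, encoded in mouse by 3 neighbouring gene arrays called alpha, beta and gamma. Members were taken by gene symbol from the table of counts: every gene named Pcdha, Pcdhb, Pcdhga, Pcdhgb, Pcdhgc or Pcdhac with a number. This gave 58 members of the 56791 genes in the table, 14 in the alpha cluster, 22 in the beta cluster and 22 in the gamma cluster. The gamma members divide into 12 of type A, 7 of type B and the C-type Pcdhgc3, Pcdhgc4 and Pcdhgc5, and the alpha cluster holds the C-type Pcdhac1 and Pcdhac2.

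RNA was sequenced from the gastrocnemius, a calf muscle, of female mice in 3 groups of 3 libraries. Aged GB mice received ginkgolide B, a terpene lactone of the ginkgo tree, at 12 mg per kg by daily oral gavage for 2 months. Aged vehicle and young vehicle mice received saline in the same way, and their sample names carry 23M and 3M. The aged GB names carry no such value, and their label gives the age as aged. The labels state no genotype and no strain. They do not tell whether each library is a different animal, so a p-value here measures the spread among libraries, and that spread may be technical.

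In an alpha or gamma gene, a large variable exon of its own encodes the extracellular cadherin repeats and is spliced to constant exons that the whole cluster shares. Beta genes lack constant exons. In neurons each cell uses its own combination of these genes, chosen at promoters bound by CTCF and cohesin, and matching combinations on the branches of a cell let it recognise and avoid itself. The family is best known from the nervous system, and skeletal muscle holds nerve endings, Schwann cells, vessels and connective tissue beside its fibres.

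The 9 libraries held 39478427 to 44294097 counts with GB, 52068522 to 54095457 for aged vehicle, and 51543383 to 61680520 for young vehicle. Genes with at least 1 count numbered 18678 to 19362 with GB, 22868 to 23045 for aged vehicle, and 22616 to 24185 for young vehicle, so the GB libraries stood apart from both vehicle groups. The labels give no batch, and GB treatment and library preparation cannot be told apart. Levels are CPM, counts relative to library size after scaling by the trimmed mean of M-values (TMM). Summed neuron markers (8 genes) were at 0.510 to 1.34 CPM with GB, 0.379 to 0.686 CPM for aged vehicle, and 0.0864 to 0.532 CPM for young vehicle. Nefl, a neurofilament gene, had 0 counts in all 9 libraries. Summed muscle fibre markers (7 genes) were at 141600 to 163200 CPM with GB, 89690 to 95100 CPM for aged vehicle, and 110000 to 121100 CPM for young vehicle.

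How shared exons were counted bears on every value of the family. In the GENCODE M21 annotation of GRCm38, all members lie on the plus strand of chromosome 18, the alpha cluster at 36930184 to 37187661, the beta cluster at 37264938 to 37524479 and the gamma cluster at 37661793 to 37841873. The gene lengths in the deposited table equal the summed exon lengths of that annotation for all 58 members. For Pcdha10 this rests on length alone, since the annotation gives it another symbol. Own exon bases are those outside the exons of every other gene, strand ignored. Their median was 2475 in the alpha, 3714 in the beta and 2587 in the gamma cluster, beside a median of 2860 shared bases in the alpha and 2374.5 in the gamma cluster. In the beta cluster 19 of 22 genes had no shared base.

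Across the table, genes without an own base almost never carried a count. Of 823 such genes, of any gene type, 4 had any count (0.486%), against 15661 of 17214 protein-coding genes with at least 1000 own bases (91%). These sets differ in gene type as well. Of 11 protein-coding genes without an own base but with at least 1000 exon bases free of other genes on their strand, 0 had a count. Among 327 genes that lacked own bases only because of a gene on the opposite strand, 4 had any count (1.22%). Pcdhga10 has no own base and had 0 counts in all 9 libraries, as did the readthrough models Gm37013, Gm37388 and Gm38182, which span several members. A value of an alpha or gamma gene below is therefore read as reads on its own part, mostly the variable exon, and reads in constant exons are not seen for any member.

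**Figure D1:**
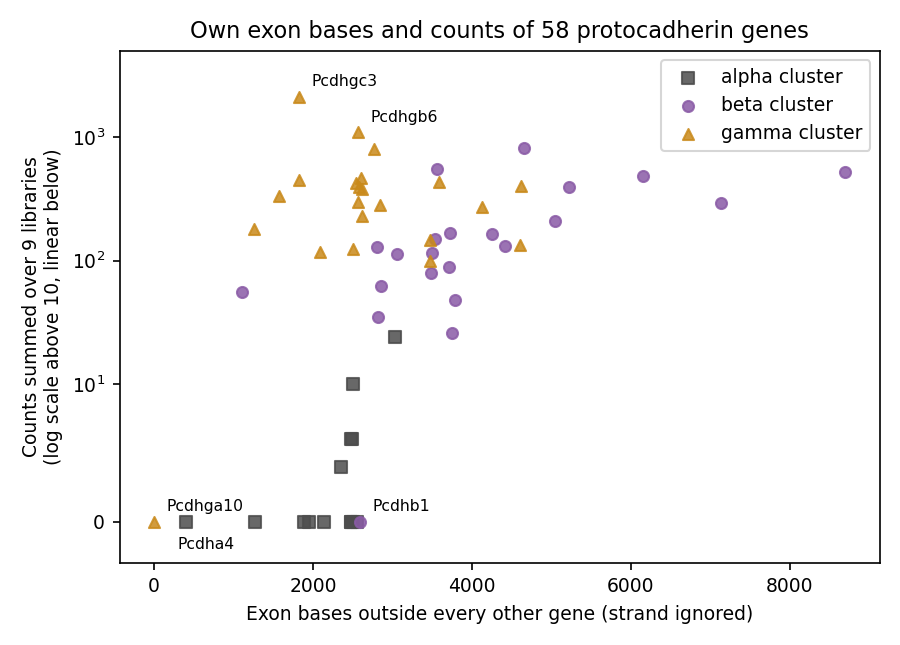
Own exon bases of each of the 58 members (x axis, bases) against its counts summed over the 9 libraries (y axis, log scale above 10 and linear below); squares are alpha, circles beta and triangles gamma genes. Pcdhga10, with 0 own bases, sits at 0 counts, and Pcdhgc3 has the most counts with 1821 own bases.

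Of the 58 members, 47 had a count in some library and 11 had none. The 11 were Pcdhb1, Pcdhga10 and 9 alpha genes: Pcdha3, Pcdha4, Pcdha6, Pcdha7, Pcdha9, Pcdha10, Pcdha11, Pcdha12 and Pcdhac1. A count of 0 allows up to 3 counts, which is 0.0900 to 0.0960 CPM in a GB library and 0.0432 to 0.0528 CPM in a vehicle library, for counting error only. Members with at least 1 count numbered 25, 25 and 27 in the GB libraries, 40, 44 and 43 in the aged vehicle libraries and 46, 43 and 42 in the young vehicle libraries. The GB libraries lay below both vehicle groups without overlap. Thinned to the total of the smallest library, the expected numbers were 24.95 to 27 with GB, 39.99 to 43.78 for aged vehicle, and 41.87 to 45.76 for young vehicle. Thinning used raw library totals, so it removed the higher CPM floor of the GB libraries only in part. It cannot tell whether the lower numbers depend on that floor.

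By cluster, the GB libraries held counts for 0, 0 and 0 alpha genes, the aged vehicle libraries for 1, 2 and 2, and the young vehicle libraries for 4, 1 and 1. Detected beta genes numbered 13, 10 and 13 with GB, 19, 21 and 20 in aged vehicle and 21, 21 and 20 in young vehicle. Detected gamma genes numbered 12, 15 and 14 with GB, 20, 21 and 21 in aged vehicle and 21, 21 and 21 in young vehicle. In both larger clusters the GB libraries lay lowest, and the vehicle groups overlapped.

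The alpha cluster was at the limit of detection. Its summed counts were 0, 0 and 0 with GB, 6, 4 and 8 in aged vehicle and 22, 4 and 6 in young vehicle. Pcdhac2, which in mouse is needed for the even spacing of serotonergic axons, was the alpha gene with counts in all 6 vehicle libraries. It had 0, 0 and 0 counts with GB, 6, 2 and 4 in aged vehicle and 2, 4 and 6 in young vehicle. Young vehicle library 1 held all counts of Pcdha1 (6) and Pcdha2 (10) and 4 counts of Pcdha8, and aged vehicle library 2 held the other 2 of Pcdha8. Pcdha5 had 4 counts in aged vehicle library 3 and 0 elsewhere. No alpha gene passed the filter on low counts, so none was tested.

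Summed beta counts were 194, 125 and 167 with GB, 523, 559 and 672 in aged vehicle and 818, 640 and 941 in young vehicle. On the CPM scale the beta sum was 5.09 ± 1.23 with GB, 9.69 ± 1.18 in aged vehicle and 12.2 ± 1.23 in young vehicle (SD, n = 3 each). The GB libraries (3.75 to 6.17 CPM) lay below the aged vehicle libraries (8.83 to 11.0 CPM), which lay just below the young vehicle libraries (11.1 to 13.5 CPM). The log2 ratio of the beta sum was -0.95 for GB against aged vehicle and -0.34 for aged against young vehicle.

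Summed gamma counts were 120, 111 and 205 with GB, 1443, 1441 and 1620 in aged vehicle and 1537, 1041 and 1668 in young vehicle. As CPM the gamma sum was 4.57 ± 1.74 with GB, 24.9 ± 1.97 in aged vehicle and 21.6 ± 3.13 in young vehicle (SD, n = 3 each). The GB libraries (3.33 to 6.56 CPM) lay far below the aged vehicle libraries (22.8 to 26.6 CPM), while aged and young vehicle (18.1 to 24.0 CPM) overlapped. The log2 ratio was -2.50 for GB against aged vehicle and 0.21 for aged against young vehicle. These are bulk libraries, in which fewer cells of a type and less RNA per cell cannot be told apart. Sums over members were given no test.

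The balance of the clusters did not overlap between any of the groups. Gamma counts made up 38.2, 47.0 and 55.1% of beta plus gamma counts in the GB libraries, 73.4, 72.1 and 70.7% in the aged vehicle libraries and 65.3, 61.9 and 63.9% in the young vehicle libraries. The means were 46.8 ± 8.45% with GB, 72.0 ± 1.36% in aged vehicle and 63.7 ± 1.68% in young vehicle (SD, n = 3 each). A share within a library does not depend on how libraries are scaled. The GB libraries also varied most among themselves, and the 95% Wilson intervals of the lowest (33.02 to 43.7%) and the highest (50.03 to 60.08%) did not meet. Such intervals cover counting error only.

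**Figure D2:**
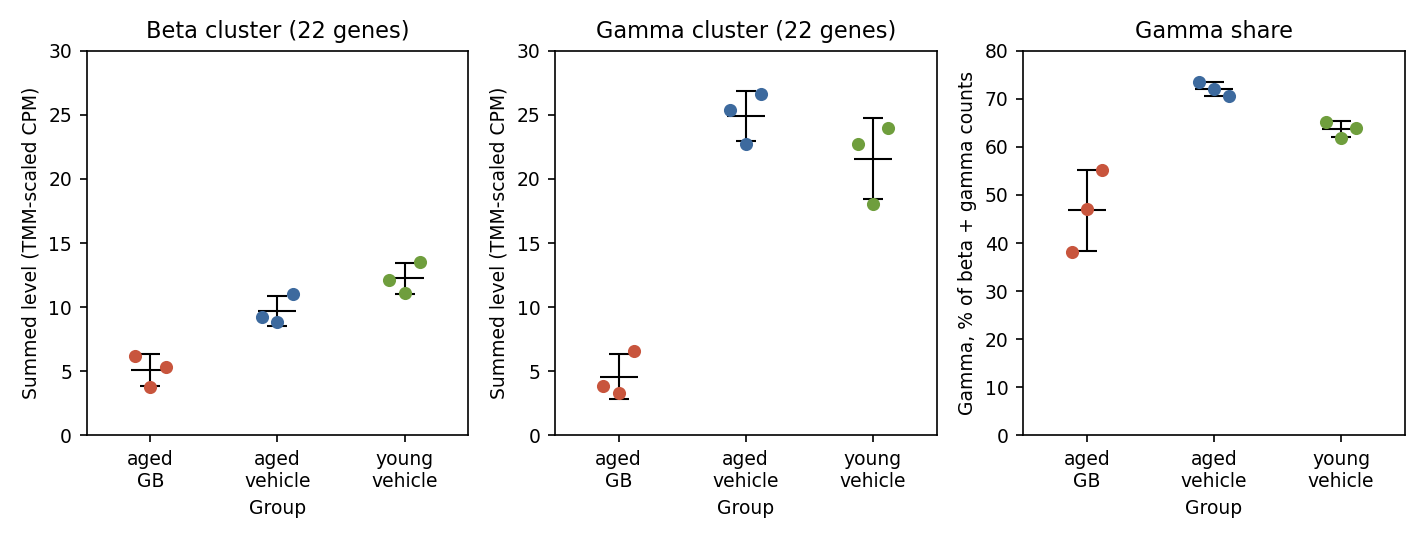
Summed level of the 22 beta and the 22 gamma genes (TMM-scaled CPM) and gamma counts as % of beta plus gamma counts, by group; points are libraries, bars the mean ± SD (n = 3 each). The gamma sum averages 4.57 CPM with GB, 24.9 CPM in aged vehicle and 21.6 CPM in young vehicle, a wider gap than in the beta sum.

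For single members, 38 of 58 passed the filter on low counts and were tested, 17 beta and 21 gamma genes. The 9 other members with a count never exceeded 17 counts in a library. The filter asks for about 0.192 CPM in 3 libraries. Of the 38 members, 4 reached that level in all 3 GB libraries, 32 in all 3 aged vehicle and 29 in all 3 young vehicle libraries. Most members therefore entered the test through the vehicle libraries. Counts of called members, medians, signs and non-overlap counts of tested members describe those tested only. Both comparisons below use the same aged vehicle libraries.

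Aged muscle with GB was compared with aged muscle with vehicle to ask what the treatment changed. Of the 38 tested members 20 fell and 0 rose (edgeR quasi-likelihood test, Benjamini-Hochberg adjusted p under 0.05), while 53.2% of all 17534 tested genes were called, 28.8% as lower and 24.4% as higher. The 20 were 5 beta genes, 8 of 11 tested gamma A genes, 6 of 7 gamma B genes and Pcdhgc3. The median log2 fold change was -1.97 over the members tested, -0.88 in the beta and -2.25 in the gamma cluster, against -0.05 over all genes tested. A negative value was seen for 35 of the 38 members and for 52.1% of all genes tested. Most of these members passed the filter through the vehicle libraries, which favours lower values with GB among them. The values over all genes are thus not a like-for-like baseline for the medians and signs of the members. Setting the 5 tested members without a GB count at their bounds left the median at -1.97. Libraries did not overlap, with GB lower, for 24 of the 58 members, the untested Pcdhac2 among them, and with GB higher for 0. Among the 38 tested members these were 23 and 0, and over all genes tested the shares were 32.5% and 27.3%.

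Pcdhgc3 had the highest level of all members per kb of own exon in both vehicle groups, at 0.296 CPM per own kb with GB, 2.49 in aged vehicle and 3.49 in young vehicle. This C-type gene promotes dendrite branching of mouse cortical neurons. Counts were 31, 4 and 16 with GB, 219, 306 and 301 in aged vehicle and 408, 344 and 492 in young vehicle. The highest GB library lay far below the lowest aged vehicle library, and the 3 groups did not overlap. As CPM it was at 0.539 ± 0.433 with GB and 4.54 ± 0.600 in aged vehicle (SD, n = 3 each), a log2 fold change of -3.08 with a standard error (SE) of 0.44 and an edgeR adjusted p of 8.71e-05. An antisense gene, BC037039, overlaps Pcdhgc3, and 33.1% of the exon bases of Pcdhgc3 are its own; whether strand was used in counting is not stated.

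Pcdhgb6, a gamma B gene, had no GB count at all. It had 0, 0 and 0 counts with GB, 194, 157 and 201 in aged vehicle and 168, 135 and 237 in young vehicle. It ranked next to Pcdhgc3 per own kb in both vehicle groups, at 1.19 CPM per own kb in aged and 1.07 in young vehicle. Against a limit of 3 counts over the GB group, it was at least 97.6-fold lower with GB than in aged vehicle (edgeR adjusted p 6.28e-07). This limit takes each count as independent and the aged vehicle sum as exact. Low counts were mostly even, as given below, and a bound that allows for this was not computed.

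The same limit applies to 4 other tested members with 0 counts in every GB library. Pcdhgb5 had 68, 72 and 62 counts in aged vehicle and 83, 54 and 67 in young vehicle, and was at least 35.7-fold lower with GB. Pcdhga8 had 21, 20 and 20 counts in aged vehicle and 5, 16 and 36 in young vehicle, and was at least 10.8-fold lower with GB. The beta genes Pcdhb8 and Pcdhb10 ranged over 6 to 20 counts across the vehicle libraries and were at least 7.96-fold and 5.66-fold lower with GB. All 4 fell by the edgeR test. With Pcdhac2, 6 members had 0 counts in all GB libraries and a count in all aged vehicle libraries, 5 of them among the 38 tested. Over all genes tested, 1.76% showed that pattern.

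Among the other gamma B genes, Pcdhgb2 had 2, 17 and 28 counts with GB, 156, 126 and 103 in aged vehicle and 135, 89 and 139 in young vehicle. Its log2 fold change with GB was -2.12 (edgeR adjusted p 0.00765, SE 0.57). Pcdhgb4 had 0, 4 and 4 counts with GB, 93, 68 and 97 in aged vehicle and 86, 18 and 64 in young vehicle. In each of these genes every GB library lay below every aged vehicle library. Pcdhgb7 had 10, 6 and 21 counts with GB, 95, 81 and 69 in aged vehicle and 77, 32 and 55 in young vehicle. Pcdhgb1 had 0, 4 and 0 counts with GB, 36, 22 and 78 in aged vehicle and 18, 35 and 36 in young vehicle. The log2 fold changes with GB of Pcdhgb4, Pcdhgb7 and Pcdhgb1 were -4.07, -1.80 and -4.12, and all fell by the edgeR test. Pcdhgb8, with 0, 0 and 8 counts with GB and 21, 38 and 16 in aged vehicle, was not called (log2 fold change -2.25, edgeR adjusted p 0.107, SE 1.11). It was called lower under 3 of 20 alternative settings.

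In the gamma A group the 8 genes that fell were Pcdhga1, Pcdhga2, Pcdhga3, Pcdhga5, Pcdhga6, Pcdhga7, Pcdhga8 and Pcdhga9. Pcdhga5 had 2, 5 and 0 counts with GB, 95, 76 and 50 in aged vehicle and 81, 62 and 54 in young vehicle. Pcdhga6 had 0, 4 and 0 counts with GB, 59, 60 and 98 in aged vehicle and 77, 41 and 45 in young vehicle. Their log2 fold changes were -4.04 (SE 0.70) and -4.78 (SE 0.84), with edgeR adjusted p of 0.000377 and 0.000404. Neither gene overlapped between GB and either vehicle group.

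Pcdhga2, Pcdhga3 and Pcdhga7 kept some counts in every GB library. Pcdhga2 had 8, 20 and 12 counts with GB, 58, 67 and 93 in aged vehicle and 68, 20 and 47 in young vehicle. Pcdhga3 had 14, 2 and 14 counts with GB, 67, 51 and 99 in aged vehicle and 57, 47 and 115 in young vehicle. Pcdhga7 had 14, 8 and 2 counts with GB, 42, 41 and 66 in aged vehicle and 52, 32 and 43 in young vehicle. In each, GB lay below aged vehicle without overlap, and the log2 fold changes were -1.53, -1.92 and -1.71 (edgeR adjusted p 0.0241, 0.0191 and 0.0314).

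Pcdhga1 had 2, 11 and 0 counts with GB, 30, 65 and 67 in aged vehicle and 45, 26 and 38 in young vehicle (log2 fold change with GB -2.71, SE 0.83). Pcdhga9 had 0, 2 and 4 counts with GB, 22, 45 and 32 in aged vehicle and 16, 8 and 17 in young vehicle (log2 fold change with GB -3.07, SE 0.86). Both also separated GB from aged vehicle in every library. Without aged vehicle library 3 the calls of Pcdhga1, Pcdhga2, Pcdhga3, Pcdhga7 and Pcdhb9 were lost, and 15 members were called. Those of Pcdhga1, Pcdhga2, Pcdhga7 and Pcdhb9 were also lost without 1 or more other libraries.

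Among the gamma A genes that were not called, the GB libraries of Pcdhga4 lay far apart. It had 11, 4 and 60 counts with GB, 58, 43 and 63 in aged vehicle and 26, 28 and 44 in young vehicle. As CPM these were 0.350, 0.120 and 1.92 with GB, 0.679 to 1.03 for aged vehicle, and 0.384 to 0.633 for young vehicle. GB library 3 was above every vehicle library and the other 2 were below them all. Pcdhga11 and Pcdhga12 had log2 fold changes of -1.77 (SE 0.88) and -0.73 (SE 0.50), and neither was called. Pcdhga4, Pcdhga11 and Pcdhga12 were each called lower under 1 alternative setting. Pcdhga4 supplied 60 of the 205 gamma counts of GB library 3.

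The other C-type genes of the gamma cluster had few counts in every group. Pcdhgc4, which mouse inhibitory interneurons need to survive, had 3, 10 and 4 counts with GB, 0, 19 and 9 in aged vehicle and 29, 5 and 21 in young vehicle. Pcdhgc5, whose protein binds GABA-A receptors in rodent neurons, had 0, 0 and 8 counts with GB, 20, 13 and 30 in aged vehicle and 23, 17 and 22 in young vehicle. Pcdhgc4 overlapped between all groups. Pcdhgc5 did not overlap between GB and aged vehicle on the count scale. As CPM it did overlap, at 0.256 in GB library 3 and 0.205 in aged vehicle library 2. It missed the threshold (log2 fold change -2.02, edgeR adjusted p 0.128, SE 1.06). Without GB library 3, which held its GB counts, Pcdhgc5 was called lower (edgeR adjusted p 0.00246), as it was by limma-voom on all libraries (adjusted p 0.0328).

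**Figure D3:**
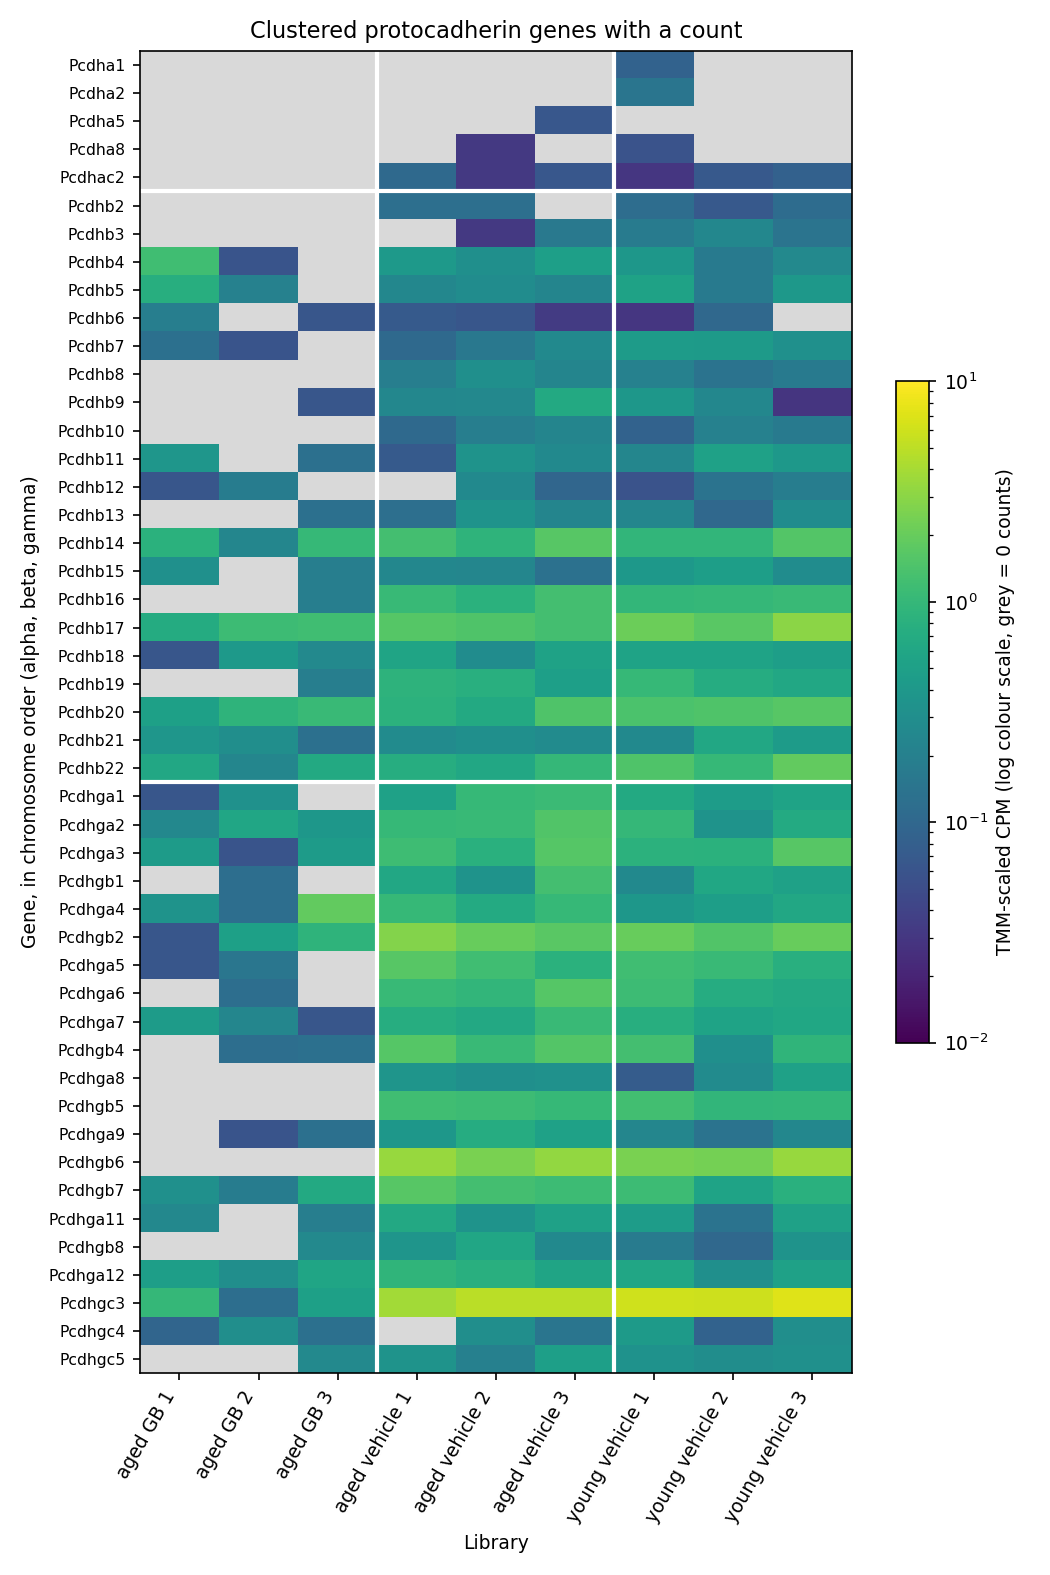
Level of each of the 47 members with a count (rows, in chromosome order) in each library (columns), as TMM-scaled CPM on a log colour scale; grey marks 0 counts. The GB columns hold far more grey cells in the gamma block than the vehicle columns, and Pcdhgb6 is grey in all 3 GB libraries.

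Within the beta cluster, the 5 genes that fell were Pcdhb8, Pcdhb9, Pcdhb10, Pcdhb16 and Pcdhb19. Pcdhb16 had 0, 0 and 6 counts with GB, 60, 52 and 78 in aged vehicle and 66, 58 and 74 in young vehicle (log2 fold change with GB -4.01, edgeR adjusted p 0.00155, SE 0.85). Pcdhb19 had 0, 0 and 6 counts with GB, 50, 50 and 30 in aged vehicle and 70, 42 and 44 in young vehicle (log2 fold change with GB -3.47, edgeR adjusted p 0.00702, SE 0.92). Every GB library lay well below all vehicle libraries in both genes. Pcdhb9 had 0, 0 and 2 counts with GB and 14, 16 and 40 in aged vehicle, a ratio of 0.0539 with a 95% exact counting interval of 0.0064 to 0.202.

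Of the 5 most counted beta genes, Pcdhb16 was called lower with TMM scaling, and Pcdhb14, Pcdhb17, Pcdhb20 and Pcdhb22 were not called. With library totals, Pcdhb14 (log2 fold change -1.44, edgeR adjusted p 0.0284), Pcdhb17 (-1.09, edgeR adjusted p 0.0143) and Pcdhb22 (-1.18, edgeR adjusted p 0.0479) were called lower. Pcdhb17, between Pcdhb16 and Pcdhb18 on the chromosome, had 22, 38 and 38 counts with GB, 92, 94 and 78 in aged vehicle and 143, 99 and 211 in young vehicle. On the CPM scale it was at 1.02 ± 0.279 with GB and 1.46 ± 0.170 in aged vehicle (SD, n = 3 each), without overlap, and its log2 fold change was -0.52 (edgeR adjusted p 0.227, SE 0.34). Pcdhb20, next to Pcdhb19, had 16, 30 and 34 counts with GB, 48, 42 and 90 in aged vehicle and 96, 85 and 114 in young vehicle, a log2 fold change of -0.26 (edgeR adjusted p 0.637, SE 0.42). As CPM it overlapped between GB and aged vehicle. The difference in response between Pcdhb16 and Pcdhb17, or Pcdhb19 and Pcdhb20, was not tested.

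Pcdhb14, the beta gene with the longest own exon (8695 bases), had 26, 8 and 32 counts with GB, 73, 57 and 101 in aged vehicle and 63, 54 and 110 in young vehicle. Its log2 fold change was -0.88 (edgeR adjusted p 0.165, SE 0.51). Pcdhb22 had 20, 8 and 21 counts with GB, 42, 40 and 61 in aged vehicle and 102, 59 and 131 in young vehicle (log2 fold change with GB -0.62, SE 0.47). As CPM both genes overlapped between GB and aged vehicle. Pcdhb17, Pcdhb20 and Pcdhb14 together made up 33.0, 60.8 and 62.3% of beta counts in the GB libraries, 40.7, 34.5 and 40.0% in aged vehicle and 36.9, 37.2 and 46.2% in young vehicle. The share was higher in 2 of 3 GB libraries than in any vehicle library.

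Low members were scattered among the GB libraries. Pcdhb4 had 38, 2 and 0 counts with GB, 23, 20 and 30 in aged vehicle and 26, 10 and 18 in young vehicle. GB library 1 thus held more Pcdhb4 counts than any other of the 9 libraries, and GB library 3 held none. Even values were frequent at this depth: 242 of the 335 member counts above 0 were even (72.2%). Over all genes with 1 to 50 counts, 64.0 to 73.9% of values were even in each library, against 49.1 to 50.6% of values over 500 counts. The reason was not tested, and the bounds and counting intervals given here take each count as independent. With counts halved and rounded up, an alternative chosen after seeing the data, 16 of 29 members tested were called lower.

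**Figure D4:**
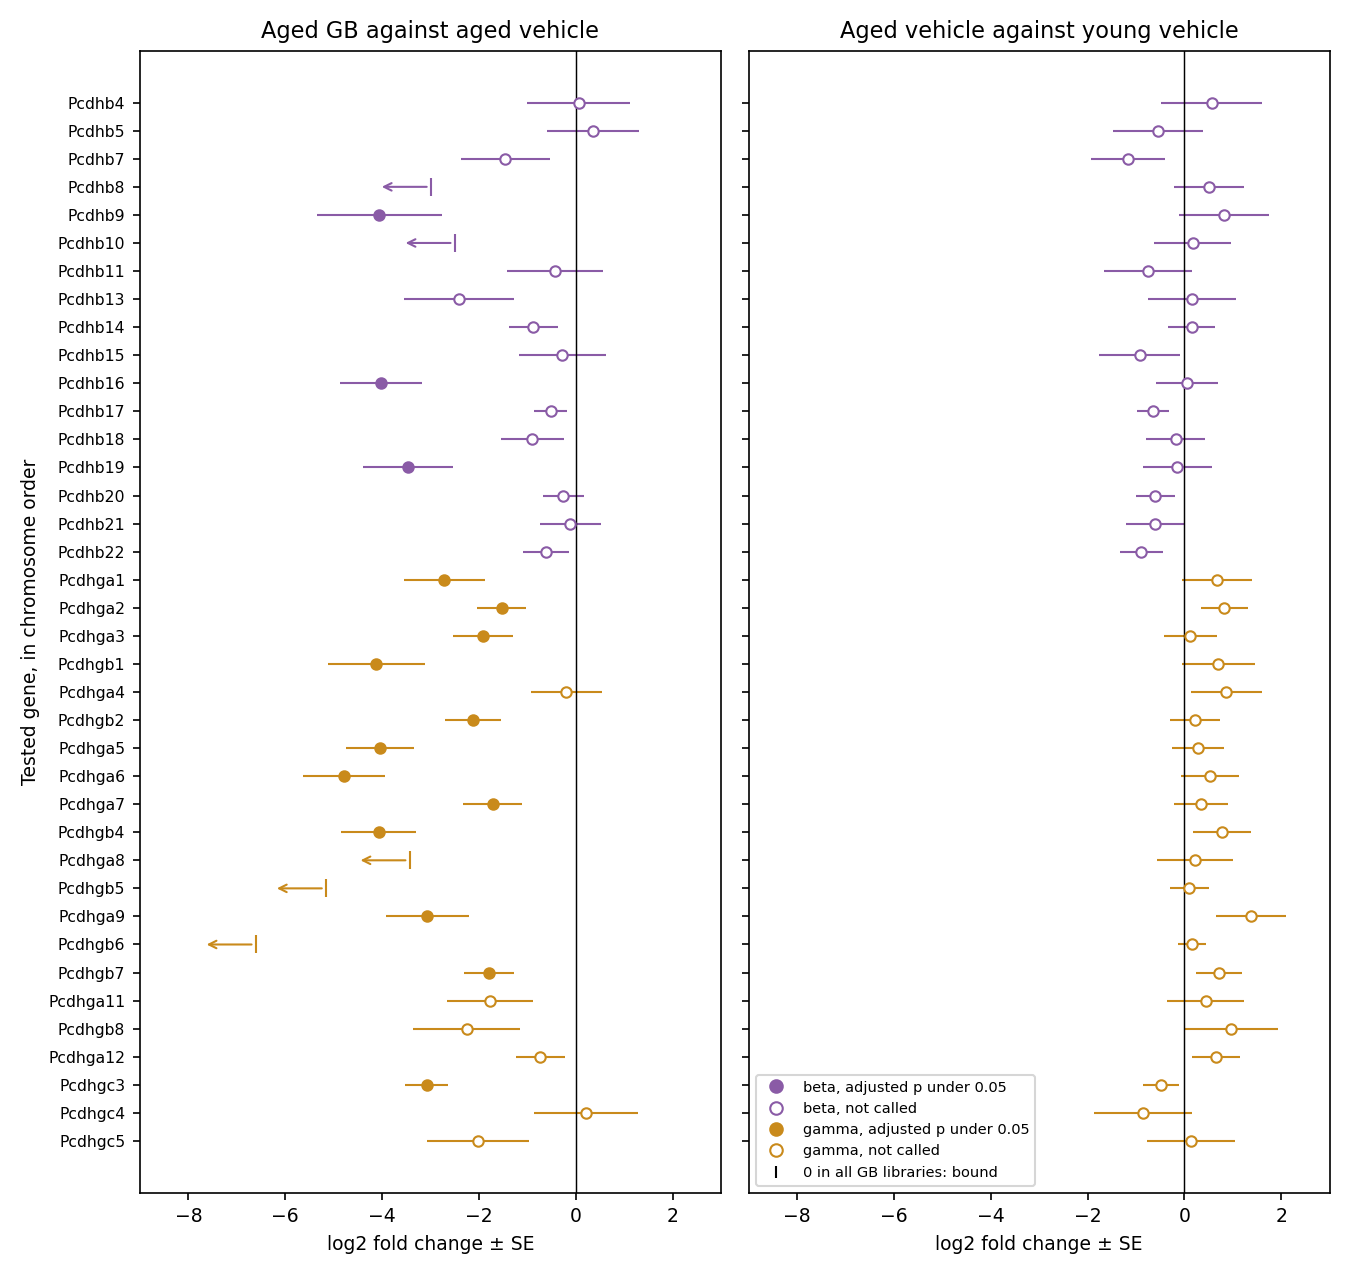
Log2 fold change of each of the 38 tested members (rows, in chromosome order), with bars of 1 SE, for aged GB against aged vehicle and for aged vehicle against young vehicle. Under GB 20 members are called lower, and with age 0 are called. Members with 0 counts in all GB libraries are drawn under GB as an arrow from their bound, without an SE bar. Their fitted values depend on the prior count and are not drawn there.

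Within the gamma cluster the make-up also separated the groups. Gamma A genes took 61.7, 59.5 and 56.6% of gamma counts in the GB libraries, 37.5, 37.4 and 40.4% in aged vehicle and 32.4, 29.4 and 30.6% in young vehicle. Gamma B genes took 10, 27.9 and 29.8% with GB, 46.0, 39.1 and 38.6% in aged vehicle and 37.7, 35.5 and 37.3% in young vehicle. The gamma A share was highest and the gamma B share lowest with GB, in every library. In GB library 3 this rests largely on 1 gene, since Pcdhga4 supplied 60 of its 205 gamma counts. Shares without Pcdhga4 were not computed. Pcdhgc3 alone took 25.8, 3.604 and 7.81% with GB, 15.2, 21.2 and 18.6% in aged vehicle and 26.6, 33.1 and 29.5% in young vehicle, so GB library 1 was above all aged vehicle libraries and the other 2 GB libraries below. Pcdhgb6 took 0% with GB, 13.4, 10.9 and 12.4% in aged vehicle and 10.9, 13.0 and 14.2% in young vehicle. With Pcdhgc3 left out, the gamma sum was still 4.03 ± 1.76 CPM with GB and 20.4 ± 2.12 CPM in aged vehicle (SD, n = 3 each).

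**Figure D5:**
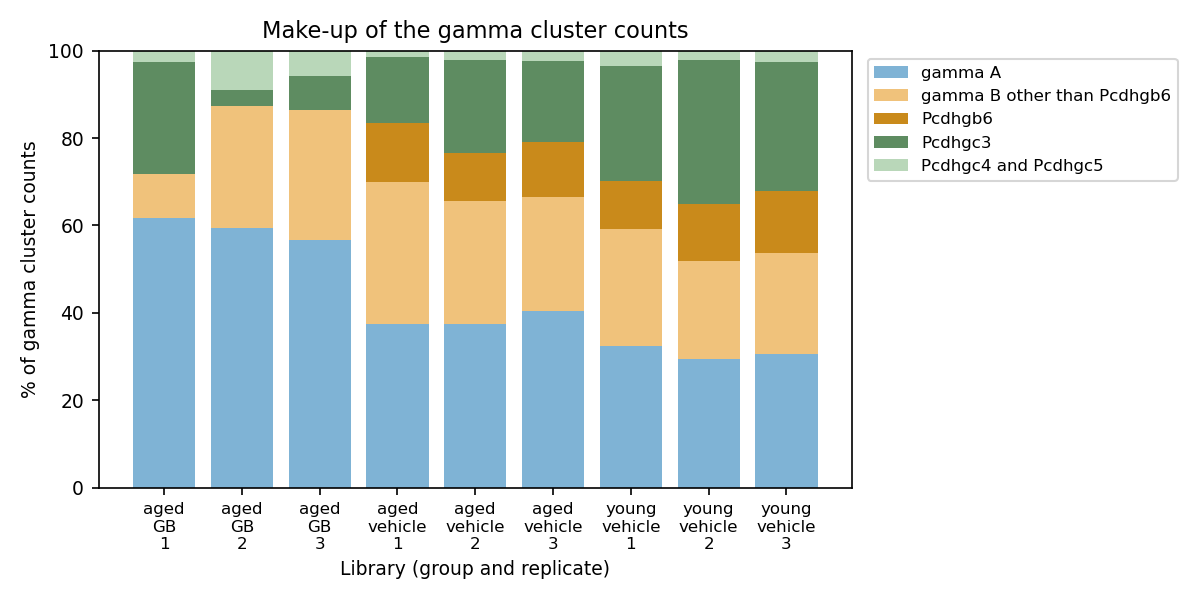
Share of gamma cluster counts (%) taken by gamma A genes, gamma B genes other than Pcdhgb6, Pcdhgb6, Pcdhgc3, and Pcdhgc4 with Pcdhgc5, 1 bar per library. Gamma A genes take 56.6 to 61.7% with GB, 37.4 to 40.4% for aged vehicle, and 29.4 to 32.4% for young vehicle. In GB library 3, the gamma A gene Pcdhga4 supplies 60 of the 205 gamma counts.

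Aged vehicle was compared with young vehicle to ask how the family differs with age. None of the 38 tested members was called by the edgeR quasi-likelihood test (0 at an adjusted p under 0.05 and 0 at an unadjusted p under 0.05), and 0 were called by DESeq2 and by limma-voom. Of all genes tested, 8.6% were called, 4.32% as higher and 4.28% as lower. The lowest adjusted p of a member was 0.262, for Pcdhb22. SEs of the members' log2 fold changes were 0.29 to 1.05, so a difference of the size of many estimates was not detectable at this depth.

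The estimates with age differed in sign between the clusters. The median log2 fold change was -0.18 in the beta and 0.44 in the gamma cluster, against -0.002 over all genes tested. All 11 tested gamma A genes (median 0.52) and all 7 gamma B genes (median 0.70) had values above 0, and Pcdhgc3 and Pcdhgc4 below 0, while 10 of 17 beta genes were below 0. None of these members was called, and the medians were given no test.

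Libraries did not overlap with age for 8 members, all among the 38 tested: 5 were lower in aged vehicle, as were 16.9% of all genes tested, and 3 were higher, as were 17.5%. Pcdhgc3 was at 4.54 ± 0.600 CPM in aged and 6.36 ± 0.626 CPM in young vehicle (SD, n = 3 each), a log2 fold change of -0.49 (edgeR adjusted p 0.491, SE 0.37). Pcdhb17 was at 1.46 ± 0.170 CPM in aged and 2.29 ± 0.677 CPM in young vehicle, a log2 fold change of -0.65 (edgeR adjusted p 0.276, SE 0.33). Pcdhb22 had a log2 fold change of -0.90 with an SE of 0.44, and Pcdhb7 and Pcdhb15 were the other members that were lower without overlap. Pcdhga9 was at 0.541 ± 0.162 CPM in aged and 0.207 ± 0.0589 CPM in young vehicle, a log2 fold change of 1.37 (edgeR adjusted p 0.287, SE 0.72), and Pcdhga2 and Pcdhga4 were the others that were higher. None of the 8 passed the test. Without Pcdhgc3, the gamma sum was 20.4 ± 2.12 CPM in aged and 15.2 ± 2.73 CPM in young vehicle (SD, n = 3 each), and the libraries did not overlap (17.9 to 21.7 against 12.1 to 16.9 CPM).

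Genes next to the arrays gave a mixed picture. Taf7, a subunit of the general transcription factor TFIID that lies between the beta and gamma clusters, was at 11.4 ± 2.82 CPM with GB and 12.0 ± 2.40 CPM in aged vehicle (SD, n = 3 each; log2 fold change -0.07, edgeR adjusted p 0.783, SE 0.20). Diaph1, a formin next to the gamma cluster, had a log2 fold change of -0.12 (edgeR adjusted p 0.385, SE 0.11). Slc25a2, a mitochondrial ornithine carrier between the same clusters, rose with GB: it had 42, 25 and 19 counts with GB against 6, 8 and 5 in aged vehicle (log2 fold change 3.07, edgeR adjusted p 0.00112, SE 0.62). The difference between these genes and the members was not tested.

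Protocadherins outside the arrays were measured for comparison. Over all genes tested, with TMM scaling, 28.8% were called lower and 24.4% higher with GB. With age these shares were 4.28% and 4.32%. Of 10 tested nonclustered protocadherins 5 fell and 0 rose with GB (7 and 0 with library totals), with a median log2 fold change of -0.80. The largest change was in Pcdh9, at 0.0413 ± 0.0359 CPM with GB and 0.565 ± 0.340 CPM in aged vehicle (SD, n = 3 each; log2 fold change -3.69, SE 0.87). Pcdh17, Pcdh18 and Pcdh1 had log2 fold changes of -1.37, -1.36 and -0.79. With age 1 of the 10 was called: Pcdh19 rose to 10.7 ± 1.48 CPM in aged vehicle, against 6.58 ± 1.16 CPM in young vehicle (log2 fold change 0.70, edgeR adjusted p 0.0333, SE 0.18). Of 12 classical and related cadherins 4 fell and 1 rose with GB, or 4 and 0 when libraries were scaled by their totals. Cdh11, at 0.481 ± 0.200 CPM with GB and 3.53 ± 0.880 CPM in aged vehicle (SD, n = 3 each), and Cdh6 had the lowest log2 fold changes (-2.87 and -2.24), and Cdh15, the M-cadherin of satellite cells, rose (log2 fold change 0.47, SE 0.13). With age 1 of the 12 rose, the endothelial Cdh5 (log2 fold change 0.63, SE 0.11).

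Genes known to control protocadherin promoters were set beside the members. Of 20 such genes 16 fell and 0 rose with GB, against 28.8% lower and 24.4% higher over all genes tested, with a median log2 fold change of -0.74; scaled by library totals, 19 fell and 0 rose. Subunits of cohesin, the ring complex that joins promoters and enhancers of the arrays, were among them: Smc1a (log2 fold change -1.30), Smc3 (-1.14) and Rad21 (-0.38). Wapl, which releases cohesin from DNA, fell by 0.68 on the log2 scale, and Smchd1, a silencer of the clusters, by 0.74. Tet1, Dnmt3a and Tet3, which remove or add DNA methylation marks, had log2 fold changes of -2.15, -1.64 and -1.58. Ctcf (-0.22, edgeR adjusted p 0.0562, SE 0.09), the cohesin subunit Stag2 (-0.22, edgeR adjusted p 0.0853, SE 0.10), Setdb1 (0.06) and Dnmt3b (0.17) were not called. With age 2 of the 20 fell, Dnmt3a (log2 fold change -0.75, edgeR adjusted p 0.00109) and Tet3 (-0.52, edgeR adjusted p 0.0203). The share of all genes tested that fell with age was 4.28%.

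Intracellular partners of the family were mixed. Over all genes tested, with TMM scaling, 28.8% were called lower and 24.4% higher with GB, and 8.6% were called with age. Of 19 tested genes 7 fell and 2 rose with GB, 14 and 1 with library totals, and 5 and 4 with upper-quartile factors. Cyfip2, a subunit of the WAVE actin regulator that alpha protocadherins bind, was at 3.66 ± 0.612 CPM with GB, 71.4 ± 40.5 CPM in aged vehicle and 17.2 ± 0.962 CPM in young vehicle (SD, n = 3 each). It fell with GB (log2 fold change -4.28) and rose with age (2.05, edgeR adjusted p 0.00863). Brk1, another subunit of that complex, rose with GB (1.16), and Wasf2 (-0.88) and Axin1 (-0.78), a partner of the Pcdhgc3 protein, fell. Cyfip2 was the 1 partner gene of 19 called with age.

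Markers of several cell types moved with GB beside these results. For every marker list here and in the next paragraph, the shares over all genes tested with TMM scaling were 28.8% lower and 24.4% higher. Endothelial markers (6 tested) had 4 genes lower and 1 higher (5 and 0 with library totals), and a sum of 252 to 287 CPM with GB, 513 to 519 CPM for aged vehicle, and 341 to 356 CPM for young vehicle. Markers of smooth muscle and pericytes (6 tested) had 5 lower and 0 higher (409 to 466 CPM with GB, 711 to 811 CPM in aged vehicle, 375 to 399 CPM in young vehicle). Macrophage markers (5 tested) had 4 lower and 0 higher (38.8 to 55.3, 82.3 to 90.5 and 70.5 to 72.8 CPM in the same order). Each of these sums was lower in every GB than in every aged vehicle library. Fibroblast markers (7 tested) had 5 lower and 2 higher (5 and 0 with library totals, 3 and 2 with upper-quartile factors), at 575 to 704 CPM with GB, 764 to 973 CPM for aged vehicle, and 851 to 1615 CPM for young vehicle.

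Schwann cell markers (8 tested) had 5 higher and 0 lower with GB, or 2 and 0 with library totals, at 163 to 267 CPM with GB, 114 to 126 CPM for aged vehicle, and 225 to 429 CPM for young vehicle. Muscle fibre markers (7 tested) had 4 higher and 1 lower (4 and 3 with library totals), and satellite cell markers (5 tested) 2 higher and 0 lower, or 1 and 1 with library totals (37.5 to 42.0 CPM with GB, 27.5 to 31.6 CPM in aged vehicle, 33.8 to 44.2 CPM in young vehicle). Of the neuron markers 1 of 8 was tested and it was not called. With age, 3 of 6 endothelial markers and 3 of 6 of smooth muscle and pericytes rose, while 3 of 8 Schwann cell markers fell. Over all genes tested, 4.32% rose and 4.28% fell with age. The part of these cell types in the protocadherin values was not tested.

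Length and base composition were set beside the change with GB. The median GC content of the longest transcript was 47.3% in the alpha, 46.0% in the beta and 53.0% in the gamma cluster. Across the 38 tested members, Spearman's rho with the GB log2 fold change was -0.13 for gene length, 0.23 for own bases, -0.27 for GC content and -0.015 for the mean count. Within the 21 tested gamma genes, rho for GC content was 0.13. Genes are not independent replicates, and these are descriptions of the same 9 libraries.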

How the data were processed

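Per the labels' protocols, TRIzol with chloroform gave the RNA, and a KAPA mRNA kit the libraries. The authors deposited raw counts per gene for 9 libraries, with gene lengths. HISAT2, SAMtools, FastQC and DESeq2 appear without versions in the submitters' processing notes, with the builds GRCm39 and mm10. The counter, annotation and strand setting: not given in the sources used here. Own bases were computed from GENCODE M21 exons.

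Counts were tested as deposited with edgeR 4.0.16 in R 4.3.3: filterByExpr (minimum count 10, minimum total 15), TMM scaling, and 1 quasi-likelihood fit (robust) to all 9 libraries, with two-sided p-values adjusted over 17534 genes. Cluster sums are log2 CPM of summed counts with a prior of 0.5. The SE is the log2 fold change over the square root of F. The script was tested on counts simulated from the vehicle libraries, with changes set only in genes above a minimum mean count. That test does not cover the low counts of the GB libraries. Alternatives were other scalings and filters, DESeq2 1.42.0, limma-voom 3.58.1, a length offset, a replicate block and leaving out each library. Replicates differed by more than sampling noise. In each group libraries 2 and 3 were closest (chi-square per gene 16.6 to 18.7), and library 1 was further from both (33.5 to 60.4). The reason was not tested.

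Named were C-type members, the 5 most counted per cluster, called members, and up to 4 called genes per list and comparison, with 7 regulators in any case. Pcdhb4, Pcdhb7, Pcdhb15, Pcdhb18, Pcdhga4, Pcdhga11, Pcdhga12, Pcdhgb8, flanking genes and genes at 0 were named after their values were seen. The members and lists were chosen with earlier results of these data known.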

Additional observations from a re-analysis of the deposited data

How the results depend on the processing

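With GB, 20 members were called lower, and 0 higher under every alternative. The number was 11 of 16 tested when at least 1 CPM in 3 libraries was required, 27 with library totals, 14 at an adjusted p under 0.01, 15 to 22 when 1 library was left out, 20 with DESeq2 and 22 with limma-voom. Apart from the stricter threshold, 15 of the 20 calls were kept under all alternatives that tested them. Pcdhga7 was also lost with the 2 groups fitted alone and with a length offset (19 called, median of all genes 0.10), and Pcdhga2 with the replicate block. Libraries with the same replicate number did not deviate together across groups (correlations -0.028 to 0.057), though library 1 stood apart from libraries 2 and 3 in each group. With the replicate block 19 members were called with GB and 0 with age. With age the number was 0 under every alternative; DESeq2 gave no adjusted p for Pcdhb8, Pcdhb10 and Pcdhgc4 there.

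Library totals moved the median of all genes under GB to -0.62 (log2), the beta sum to -1.52, the gamma sum to -3.07 and the alpha sum to -3.31 (-2.74 with TMM, all GB libraries at 0). The alpha sum was -1.05 with a prior of 2 counts and -0.92 without its most counted member. Leaving out 1 library gave -3.02 to -2.53 for alpha, -1.10 to -0.75 for beta and -2.80 to -2.31 for gamma. With age, the alpha sum (-0.37) was 0.15 without its most counted member and -0.76 to 0.29 when 1 library was left out; the gamma sum was 0.43 without Pcdhgc3 and 0.09 to 0.30 when 1 library was left out. At least 10 counts were reached by a median of 11 members with GB, against 25 with any count.

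Changes of sign were listed only for the tested C-type, most counted and called members, so the list does not cover every tested member. With GB, uncalled values that changed sign were those of Pcdhgc4 (-0.38 with library totals, -0.43 to 1.19 leaving out 1 library) and Pcdhb20 (-0.50 to 0.13). With age, they were those of Pcdhgc5 (-0.029 with the replicate block, -0.19 to 0.41), Pcdhb10 (-0.12 to 0.42), Pcdhb19 (-0.31 to 0.082) and Pcdhga3 (-0.16 to 0.54). Also listed with age were Pcdhga8 (-0.24 to 0.94), Pcdhgb2 (-0.0030 to 0.36), Pcdhga5 (-0.0056 to 0.50), Pcdhb14 (-0.076 to 0.45) and Pcdhb16 (-0.11 to 0.20). Outside the list, Pcdhb4 (log2 fold change 0.060 with GB) was called lower under 1 alternative, so its sign changed too. The cause was not tested.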
